A study of Mus musculus with 192 samples.

Results

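Single LSK cells were compared by size. LSK cells (Lin-negative, Sca-1-positive, cKit-positive) are the marrow fraction that holds blood stem cells and their multipotent progeny, and forward scatter (FSC-A) is the light that a cell deflects at a low angle in the sorter, which increases with cell size. The sorter's forward scatter was recorded for each of the 192 cells before its RNA was read. In each of the 2 library pools of 96 cells, the cells were ranked by this value, and the 32 highest formed the largest class and the 32 lowest the smallest class. The comparison therefore covers 128 of 192 cells, 64 largest and 64 smallest, with 63 kept cells between them as the middle class. The only cell left out for few UMIs (unique molecular identifiers, counts of captured RNA molecules), with 708 gene UMIs, belonged to the middle class of pool 2.

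The cells came from the marrow of C57BL/6 mice of 8 to 16 weeks, from which cells carrying cKit had been collected with beads before staining and single-cell sorting. The largest and smallest classes share strain, tissue and treatment. No animal is named, so all cells are 1 biological sample. No test across samples was possible, and no p-value is given. The 95% intervals are exact and cover counting error only, not variation between cells or animals. The last cell inside the largest class had an FSC of 146000 in pool 1 and the next cell 144000, while in pool 2 cells on both sides of that border had 145000. At the border of the smallest class, cells on both sides had 128000 in pool 1 and 130000 in pool 2. FSC ran up to 183000 in pool 1 and 181000 in pool 2, and down to 102000 in pool 1 and 107000 in pool 2. The class medians were 154000 in the largest, 136000 in the middle and 123000 in the smallest cells, a ratio of 1.25 between the ends. Scatter is in arbitrary units and is no measure of volume.

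Cells grow as they pass from G1 through S phase to mitosis, and stem cells at rest are small, with little cytoplasm. A larger cell usually holds more mRNA in total, so the share of each gene among all molecules says which programmes take a larger part of a larger pool. Spike-in RNA, added in the same amount to every well, gives a second scale that follows the amount of mRNA per cell. Textbook markers of these states are the MCM helicase and Pcna for DNA replication, Mki67 and Top2a for G2 and mitosis, nucleolar genes such as Ncl for ribosome production, and Hlf, Mecom and Procr for resting stem cells.

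The defining LSK genes were present at both ends. Kit, which encodes cKit, was seen in 63 of 64 largest and 62 of 64 smallest cells, and Ly6a, which encodes Sca-1, in 21 and 20 of them. Cd34, a surface glycoprotein of progenitors, was seen in 62 largest and 59 smallest cells. Genes of other cell types were few in most cells but not in all. Of 20 listed genes of T, ILC and NK cells, Cd3d, Cd3e, Cd3g, Gzma and Gzmb were not among the rows of the counts and Cd2 had no UMI in these classes, and the listed genes together held 0 to 41.4 of 10000 gene UMIs in a largest cell and 0 to 16.8 in a smallest cell. Of 20 genes of mature neutrophils and macrophages, S100a8, Ltf and Retnlg had no UMI, and the list held at most 11.9 of 10000 in a largest and 6.57 in a smallest cell. The B lineage list reached 61.3 of 10000 in a largest cell, and the MHC class II and dendritic list 346 in a smallest cell. Erythroid genes had a median of 6.66 of 10000 in the largest and 12.3 in the smallest cells, and reached 109 in a largest and 66.5 in a smallest cell. The cell indices of both pools are the same 96 sequences, as the same primers served both, so cells are told apart by pool and index together.

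Larger cells yielded more mRNA. Gene UMIs per cell had a median of 22426.5 (9040 to 49372) in the largest class, 18074 in the middle class and 15126.5 (3927 to 39545) in the smallest class. The spike-in UMIs of the same cells differed far less, with medians of 602.5, 587 and 622. By means, the largest cells had 0.915-fold the spike-in UMIs of the smallest (0.898 to 0.933) in pool 1. In pool 2 they had 1.02-fold (0.997 to 1.04). Gene UMIs per spike-in UMI came to 39.3 in the largest, 28.9 in the middle and 23.3 in the smallest class, so the largest cells stood 1.69-fold above the smallest (1.67 to 1.71). The ratio was 1.98 (1.95 to 2.02) in pool 1 and 1.42 (1.39 to 1.44) in pool 2. The classes overlapped: 62 of 64 largest cells lay above the median of the smallest in this measure, and by gene UMIs alone 58 did, but only 4 exceeded the highest smallest cell. That cell, in pool 2 with an FSC of 126000, had 39545 gene UMIs and 66.8 per spike-in UMI. Across the cells of a pool, FSC and gene UMIs per spike-in UMI had a Spearman rho of 0.71 in pool 1 (96 cells) and 0.50 in pool 2 (95 cells); these cells share a library and its depth. Detected genes had a median of 5602.5 in the largest, 4950 in the middle and 4516 in the smallest cells.

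**Figure D1:**
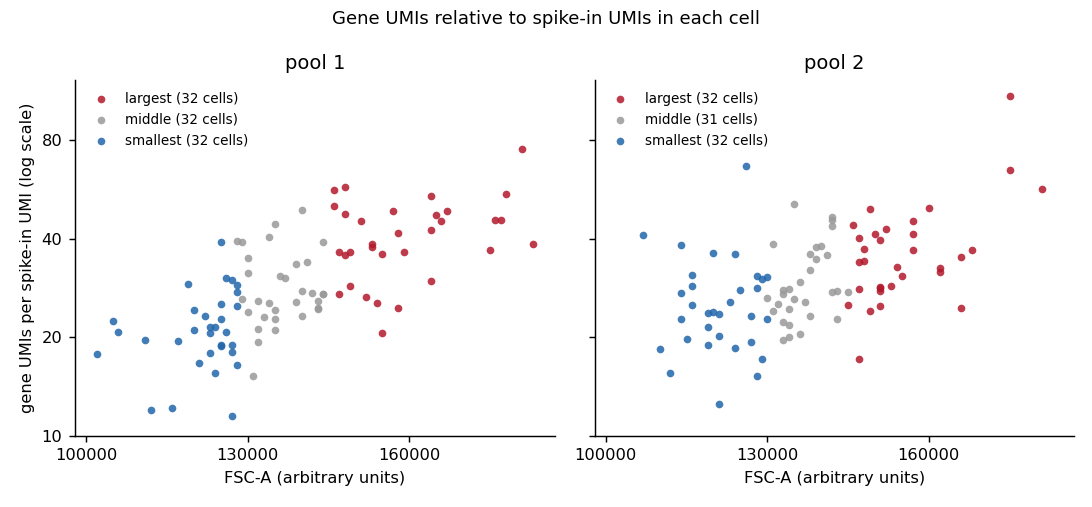
Gene UMIs per spike-in UMI (log scale) against FSC-A in arbitrary units, 1 point per cell, left pool 1 and right pool 2, coloured by class. The largest cells lie mostly above the smallest, more clearly in pool 1 (ratio 1.98) than in pool 2 (ratio 1.42), where 1 smallest cell with an FSC of 126000 reaches 66.8.

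From here a gene's level is its UMIs summed over a class per 1000000 gene UMIs of that class (CPM), so that more mRNA per cell does not by itself raise a gene. On this scale the median gene with at least 50 UMIs had a log2 ratio of -0.02 between the largest and the smallest cells. Of 7329 such genes, 758 (10.3%) were higher and 783 (10.7%) lower past 1.5-fold, and 382 (5.21%) and 325 (4.43%) were so in both pools. Scaling to spike-in UMIs instead adds 0.76 on the log2 scale to every gene. On that scale 94.4% of genes were above 0 and 40 of 7329 (0.546%) were lower past 1.5-fold, so nearly every gene measured had more molecules per spike-in molecule in the largest class, and a lower CPM is a smaller share of a larger total. Ratios below are shares of gene UMIs unless spike-ins are named.

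The genes farthest above 0 were genes of the S phase and of chromosome segregation. By the rule used for naming, the 12 with an interval farthest from 0 were Pclaf, Cenpm, Top2a, Kif15, Rrm2, Tk1, Ncapg, Ccne2, Clspn, Zfp367, Nusap1 and Mcm5, of which 6 are on the DNA replication list, 5 on the mitosis list and Zfp367 on neither. All 12 were past 1.5-fold in both pools. Pclaf, which encodes a partner of the PCNA clamp, had 271 UMIs in the largest and 14 in the smallest cells (log2 ratio 3.58, 2.80 to 4.47), with 3.87 in pool 1 and 3.41 in pool 2. Its molecules were unevenly spread, with 22 largest cells holding any, up to 46 in a cell, against 9 smallest cells with at most 4. Top2a, the topoisomerase that untangles sister chromatids, had 683 and 73 UMIs (2.53, 2.18 to 2.90), seen in 49 and 26 cells. Mcm5, a subunit of the replicative helicase, had 320 and 39 UMIs (2.34, 1.85 to 2.86) and was spread more evenly, over 55 largest and 21 smallest cells, with a median of 3 UMIs per largest and 0 per smallest cell. Cells in which such genes should be silent were not set apart here, so the counts of cells with a UMI have no measured background.

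Promoters of 4 of these genes are shown as examples of short motifs beside the start sites of replication and mitosis genes. Each run is 300 bases of RefSeq sequence on GRCm38.p6, read 5′ to 3′ on the gene's strand from 250 bases before to 50 after the annotated start. Capitals mark matches, on either strand, to the E2F motifs TTTGGCGC and TTTCCCGC, to CCAAT, to the cell cycle homology motif TTTGAA and to CACGTG, which are read as GCGCCAAA, GCGGGAAA, ATTGG and TTCAAA on the other strand. Pclaf and Mcm5 are replication genes, and Top2a and Ncapg, a condensin subunit gene, are mitosis genes.
Pclaf, chr9:65890073-65890372, plus strand: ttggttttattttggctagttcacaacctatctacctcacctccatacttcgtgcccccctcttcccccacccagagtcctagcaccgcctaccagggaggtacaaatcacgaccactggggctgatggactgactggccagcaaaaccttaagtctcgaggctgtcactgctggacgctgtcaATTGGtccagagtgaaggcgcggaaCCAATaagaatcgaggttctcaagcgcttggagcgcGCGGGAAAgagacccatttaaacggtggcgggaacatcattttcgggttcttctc
Mcm5, chr8:75109259-75109558, plus strand: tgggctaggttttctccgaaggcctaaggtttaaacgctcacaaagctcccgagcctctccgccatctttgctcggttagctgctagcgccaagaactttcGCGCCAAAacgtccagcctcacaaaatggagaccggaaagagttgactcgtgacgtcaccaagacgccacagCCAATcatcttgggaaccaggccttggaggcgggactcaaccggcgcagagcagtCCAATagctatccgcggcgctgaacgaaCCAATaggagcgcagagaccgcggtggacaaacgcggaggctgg
Top2a, chr11:99024140-99024439, minus strand: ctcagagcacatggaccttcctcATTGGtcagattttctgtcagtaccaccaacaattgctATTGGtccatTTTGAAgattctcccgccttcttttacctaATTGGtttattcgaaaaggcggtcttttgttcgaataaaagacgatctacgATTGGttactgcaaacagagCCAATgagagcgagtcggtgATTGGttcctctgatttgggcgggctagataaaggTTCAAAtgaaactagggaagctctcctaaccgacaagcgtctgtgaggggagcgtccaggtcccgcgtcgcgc
Ncapg, chr5:45669675-45669974, plus strand: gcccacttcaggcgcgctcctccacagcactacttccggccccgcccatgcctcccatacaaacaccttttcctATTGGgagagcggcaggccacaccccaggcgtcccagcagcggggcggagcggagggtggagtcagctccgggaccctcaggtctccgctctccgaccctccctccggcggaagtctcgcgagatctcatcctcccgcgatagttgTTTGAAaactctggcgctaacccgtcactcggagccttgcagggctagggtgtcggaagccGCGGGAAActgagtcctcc
Pclaf has an E2F match 5 bases before its start and Mcm5 one 149 bases before. Top2a has TTTGAA matches at 179 and, on the other strand, 23 bases before the start, and 6 CCAAT matches on both strands together. Ncapg has TTTGAA 30 bases before its start and an E2F match 32 bases past it. The other named genes did not all follow these examples. Of the 11 promoters found for the 12 genes, 6 had an E2F match and 3 had TTTGAA. The replication genes Rrm2, Tk1 and Clspn had no E2F match, while the mitosis genes Cenpm and Kif15 did. Tk1 and Nusap1 had none of the motifs. Over the lists, an E2F match was present in 30.8% of the 52 replication promoters found in the reference, against 1.63% of 27025 promoters of all genes. TTTGAA was present in 70% of the 60 mitosis promoters found, against 18.1% of all. CCAAT was found in 65.4% of the replication and 73.3% of the mitosis promoters, against 37.9% of all. A match is a description of the letters, not of a bound factor, and some matches overlap.

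DNA replication genes had more members past 1.5-fold in both pools than any of the other lists. Of 60 measured members 58 were higher past 1.5-fold and none lower, 54 of them in both pools, against 14.2% of all 12019 genes with at least 10 UMIs higher and 17.2% lower (6.03% and 6.89% in both pools). The median member stood at a log2 ratio of 1.64, with 1.87 for pool 1 and 1.41 for pool 2, against -0.05 for all such genes. Together the 61 listed genes took 6077 CPM in the largest, 2880 in the middle and 2100 in the smallest cells, a ratio of 2.89 (2.76 to 3.04). In single cells the list had a median of 49.1 of 10000 gene UMIs in the largest class (12.9 to 129), 18.6 in the middle (7.45 to 85.6) and 15.7 in the smallest (5.61 to 77.1). The classes overlapped in part: 62 of 64 largest cells were above the median of the smallest and 18 were above its highest cell. FSC and this level had a rho of 0.59 in pool 1 and 0.60 in pool 2.

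The clamp gene Pcna had 1036 UMIs in the largest and 237 in the smallest cells, that is 658 and 245 CPM with 291 in the middle (log2 ratio 1.43, 1.22 to 1.64; pools 1.42 and 1.41). Unlike Pclaf it was seen in nearly every cell, 63 and 62 of 64, with a median of 9 UMIs in a largest and 3 in a smallest cell. The helicase genes Mcm6 and Mcm7 had 1.41 (1.13 to 1.70) and 1.20 (0.94 to 1.47), and Dnmt1, which copies DNA methylation to the new strand, 1.28 (0.93 to 1.64). Genes of nucleotide supply and of S phase entry had larger ratios and fewer molecules. Rrm2, the ribonucleotide reductase subunit, had 118 and 9 UMIs (3.01, 2.04 to 4.18), the thymidine kinase gene Tk1 146 and 13 (2.79, 1.97 to 3.73), and cyclin E2, Ccne2, 57 and 3 (3.55, 1.93 to 5.87). Clspn, which encodes the checkpoint adaptor claspin, had 75 and 5 UMIs (3.21, 1.92 to 4.87). The chromatin assembly gene Chaf1b, picked after its value was seen, stood at 0.03 with 63 and 38 UMIs, the lowest ratio on the list.

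The 12 genes with the farthest interval outside the replication and mitosis lists, a selection made after values were seen, were Zfp367, Mpo, Dna2, Atad2, Hells, Kntc1, Gmnn, Fignl1, Brca2, Dnajc9, Tipin and Tcf19. Atad2, a bromodomain ATPase gene, had 289 and 39 UMIs (2.19, 1.70 to 2.71), and Hells, which remodels chromatin for DNA methylation, 225 and 29 (2.26, 1.69 to 2.87). Gmnn, which encodes geminin, the inhibitor of a new round of replication, had 91 and 10 (2.49, 1.54 to 3.59). Brca2, of homologous recombination, had 185 and 28 (2.02, 1.45 to 2.65), with 3.77 in pool 1 and 0.88 in pool 2. Mpo, the myeloperoxidase of the granulocyte lineage, is of another kind and is described with the lineage genes.

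Mitosis genes were also higher, but their UMIs lay in fewer cells. Of 70 measured members 61 were higher past 1.5-fold and none lower, though 32 in both pools, against 14.2% and 6.03% of all genes. Their median was 1.58, that is 2.46 by pool 1 and 0.47 by pool 2. The list took 3859 CPM in the largest, 1426 in the middle and 1605 in the smallest cells, a log2 ratio of 1.27 (1.19 to 1.35), or 1.98 in pool 1 and 0.55 in pool 2. The median cell had 17.7 of 10000 gene UMIs in the largest class (2.03 to 217), 11.7 in the middle (3.84 to 52.2) and 10.6 in the smallest (2.54 to 107), and 52 of 64 largest cells were above the median of the smallest. Of the 6073 mitosis UMIs of the largest class, 4 cells of pool 1 held 37%, and their FSC values were 166000 to 183000. Of the 1555 mitosis UMIs of the smallest class, 1 cell held 27.2%.

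That smallest cell was the one in pool 2 with 39545 gene UMIs. It ranked at 74 of 96 by forward scatter but first in its class by gene UMIs, mitosis UMIs (423), histone UMIs (427) and ribosome biogenesis UMIs (540). Without it the mitosis ratio was 1.66 (1.57 to 1.76) over both pools and 1.22 (1.09 to 1.35) in pool 2. Without the 4 highest cells of each class it was 1.31 (1.21 to 1.41), with 1.26 in pool 1 and 1.35 in pool 2. The replication ratio was 1.55 (1.48 to 1.62) without that smallest cell and 1.60 (1.53 to 1.68) without the 4 highest cells of each class. These exclusions were chosen after the values were seen.

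Mki67, the gene of the Ki-67 antigen of cycling cells, had 385 UMIs in the largest and 98 in the smallest cells (1.27, 0.95 to 1.61), at 245 and 101 CPM with 43.9 in the middle. Its ratio was 2.62 in pool 1 and 0.24 in pool 2, and the highest smallest cell alone held 57 of the 98. It was seen in 25 of 64 largest and 15 of 64 smallest cells, or 39.1% and 23.4%. Thinned to 12147 gene UMIs, which leaves out 2 largest and 14 smallest cells of lower depth, the shares were 32.3% of 62 largest and 24% of 50 smallest cells. The condensin gene Smc4 had 488 and 180 UMIs (0.74, 0.49 to 0.99) and the spindle checkpoint gene Bub1b 462 and 175 (0.70, 0.45 to 0.96). The kinetochore gene Cenpm had 67 and 2 UMIs (4.37, 2.46 to 7.44), the motor gene Kif15 84 and 5 (3.37, 2.09 to 5.03), Ncapg 58 and 3 (3.57, 1.95 to 5.89) and the spindle gene Nusap1 55 and 3 (3.50, 1.87 to 5.82). Tuba1b, an alpha tubulin gene that is on the cytoskeleton list, had 1790 and 386 UMIs (1.51, 1.35 to 1.68) and was seen in 64 and 58 cells.

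Replication-dependent histones, made in S phase, had a large part of their UMIs in a handful of cells. Their mRNAs mostly lack a poly(A) tail, which the primers of this protocol bind, and the genes share most of their sequence, so single members cannot be told apart safely. Of 34 measured members 23 were higher and 4 lower past 1.5-fold, against 14.2% and 17.2% of all genes. The summed ratio was 1.37 (1.28 to 1.46), with 2.21 in pool 1 and 0.48 in pool 2. Yet the median cell had 3.56 of 10000 gene UMIs in the largest class and 3.53 in the smallest. In both classes 4 cells held over 51% of the histone UMIs, 51.3% in the largest and 51.5% in the smallest class. Without those cells the ratio was 1.39 (1.27 to 1.52) over both pools, 1.86 (1.70 to 2.03) in pool 1 and 0.01 (-0.22 to 0.24) in pool 2. Hist1h2bc, a histone gene that also makes polyadenylated mRNA, was among the 12 genes farthest below 0, with 46 UMIs in the largest and 86 in the smallest cells (-1.60, -2.15 to -1.07), with -2.63 in pool 1 and -0.48 in pool 2.

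**Figure D2:**
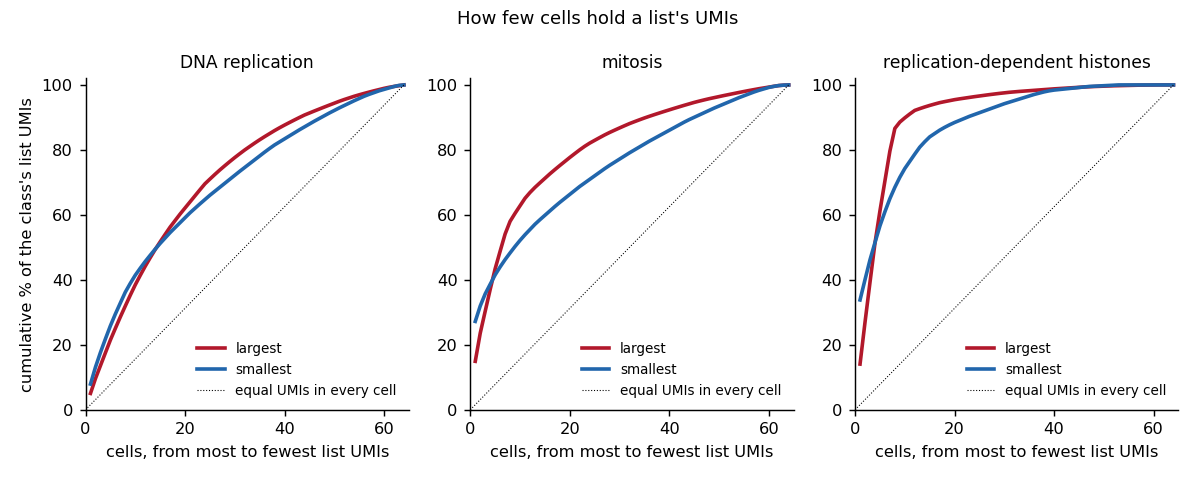
Cumulative percent of the UMIs of a list against the number of cells, ordered from most to fewest, for the largest and the smallest class (64 cells each); the dotted line is an equal share per cell. Histone UMIs climb past 51% within 4 cells of either class, while replication UMIs climb slowly.

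Quiescence genes had smaller shares in large cells. Of 12 measured members 7 were lower past 1.5-fold and none higher, 5 of them in both pools, against 17.2% of all genes lower and 6.89% lower in both pools. The median was -0.73 (-0.81 in pool 1, -0.45 in pool 2). Txnip, which restrains glucose uptake, had 268 UMIs in the largest and 351 in the smallest cells (-1.09, -1.32 to -0.86), Rgs2, a brake on G protein signalling, 99 and 127 (-1.06, -1.45 to -0.67), and the forkhead factor gene Foxo3 135 and 135 (-0.70, -1.05 to -0.34). The Cdk inhibitor gene Cdkn1b had 86 and 91 (-0.78, -1.22 to -0.34). The summed list stood at -0.65 as a share and turned to 0.11 per spike-in UMI. On the spike-in scale Txnip stayed below 0 at -0.33 and Rgs2 at -0.30, while Foxo3 stood at 0.06 and Cdkn1b at -0.03. The Cdk inhibitor list had no common direction, with 2 of 5 measured members higher and 1 lower past 1.5-fold and a summed ratio of -0.02 (-0.34 to 0.31). Cdkn1a had 62 and 16 UMIs (1.25, 0.44 to 2.15) and Cdkn2c 25 and 3 (2.36, 0.65 to 4.73). Among G1 genes, Cdk4 stood at 0.84 (0.58 to 1.11) and Ccnd3 at 0.45 (0.13 to 0.79), while the intervals of Ccnd2 (0.15, -0.03 to 0.33) and Cdk6 (0.20, -0.01 to 0.42) spanned 0.

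**Figure D3:**
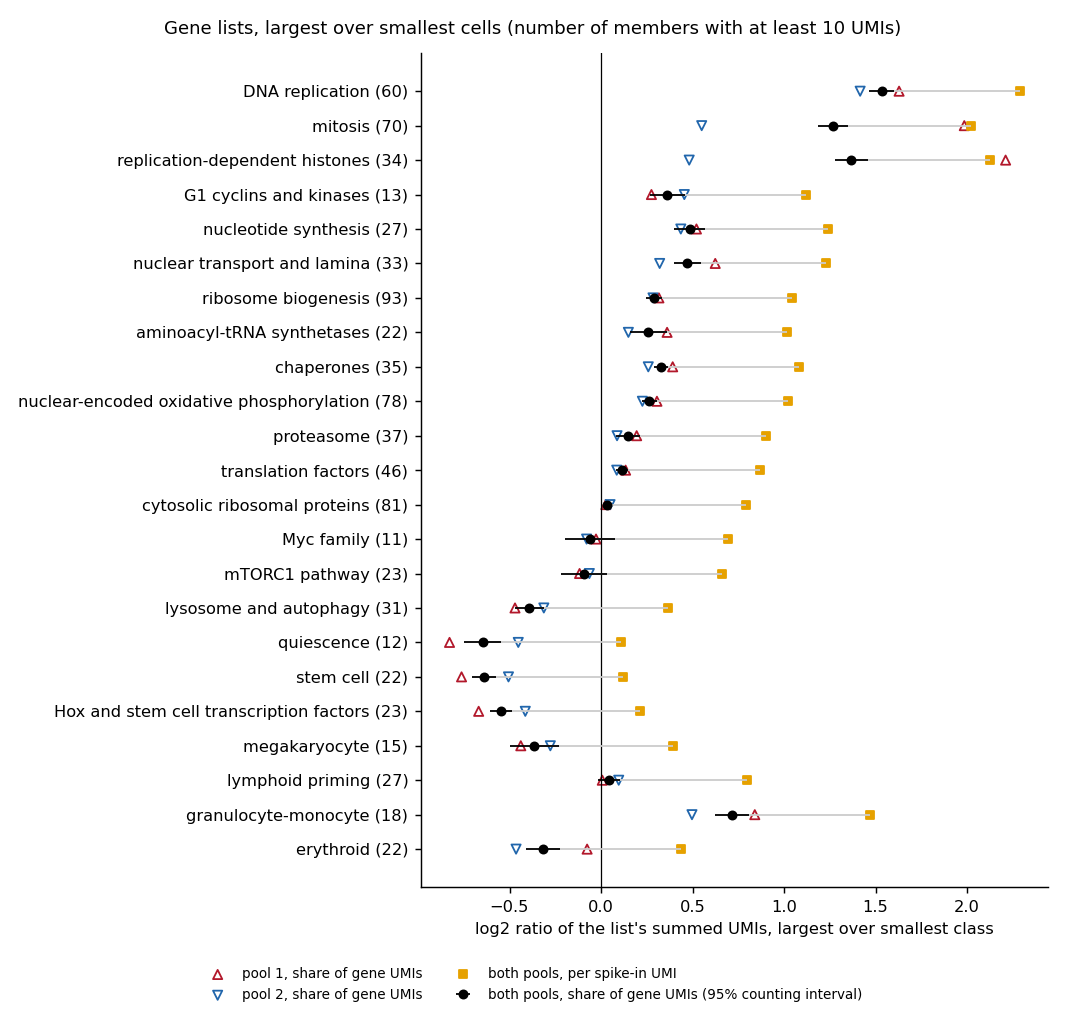
Log2 ratio of summed UMIs, largest over smallest cells, for 23 gene lists with the number of measured members in brackets. Black points are shares of gene UMIs over both pools with 95% counting intervals, open triangles each pool, and squares the ratio per spike-in UMI, 0.76 higher throughout; the replication list lies at 1.53 and the stem cell list at -0.64. The B lineage, MHC class II and other lists are not drawn.

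Biosynthesis genes took a slightly larger share of the mRNA of large cells. Of 93 measured ribosome biogenesis genes, which act in the nucleolus to make ribosomes, 73 had a ratio above 0 and 20 below, against 46.6% and 53.4% of all genes, but 11 were higher past 1.5-fold and none lower, below the 14.2% of all genes that were higher. The median was 0.24 (0.26 in pool 1, 0.21 in pool 2), and the list took 8229, 7192 and 6729 CPM in the largest, middle and smallest cells (0.29, 0.25 to 0.33). The median cell had 79.1 of 10000 gene UMIs in the largest, 66.95 in the middle and 63.9 in the smallest class. Ncl, which encodes nucleolin, had 1796 UMIs in the largest and 839 in the smallest cells (0.40, 0.28 to 0.52; pools 0.46 and 0.35), with a median of 24 UMIs in a largest and 11 in a smallest cell. Npm1, nucleophosmin, had 0.29 (0.18 to 0.40) and Pa2g4, a growth regulator that binds ribosomal precursors, 0.68 (0.45 to 0.92). Per spike-in UMI the list stood at 1.05. CACGTG, the E-box motif, was found in 19.5% of the 82 promoters of this list in the reference, against 7.24% of all.

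The proteins of the ribosome itself kept their share. The 81 cytosolic ribosomal protein genes had a median of 0.04, none was higher and 1 was lower past 1.5-fold. Translation factors had a median of 0.11 over 46 genes, with Eef1a1 at 0.07 (-0.03 to 0.16) and Eef2 at -0.02 (-0.13 to 0.10). Aminoacyl-tRNA synthetases, which charge tRNAs, had 0.33 over 22 genes, 2 of them higher past 1.5-fold. Chaperones had 0.29 over 35 genes, 7 higher past 1.5-fold, a share not far from the 14.2% of all genes. Hsp90aa1, the inducible form of Hsp90, had 1608 UMIs in the largest and 591 in the smallest cells (0.74, 0.61 to 0.88), against 0.16 (0.07 to 0.25) for its constitutive relative Hsp90ab1. Proteasome genes had 0.13 over 37 genes. Nuclear-encoded genes of oxidative phosphorylation had 0.30 over 78 genes, 68 of them above 0, and 15 higher past 1.5-fold, again not far from that 14.2%. In single cells they had a median of 85.3 of 10000 gene UMIs in the largest, 76.5 in the middle and 71.4 in the smallest class. Glycolysis genes had 0.21 over 19 genes, with Gapdh at 0.68 (0.41 to 0.96) and Ldha at 0.49 (0.25 to 0.74).

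Nucleotide synthesis and nuclear transport stood out among the biosynthetic lists by size. Of 27 nucleotide synthesis genes 13 were higher past 1.5-fold, 8 in both pools, and none lower, with a median of 0.57. Of all genes, 14.2% were higher past 1.5-fold and 6.03% in both pools. Paics, of purine synthesis, had 654 UMIs in the largest and 293 in the smallest cells (0.46, 0.26 to 0.66). The folate enzyme genes Mthfd1, with 96 and 20 UMIs (1.56), and Shmt1, with 96 and 24 (1.30), had larger ratios and were picked after their values were seen. Of 33 genes of nuclear transport and the lamina 12 were higher past 1.5-fold, against that 14.2%, and none lower, with a median of 0.41. Ran, the GTPase that drives transport, had 847 and 283 UMIs (0.88, 0.69 to 1.08), and the B-type lamin genes Lmnb1 and Lmnb2, also picked afterwards, had 147 and 37 (1.29) and 44 and 6 (2.18).

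Growth regulators showed no common direction. Myc had 409 UMIs in the largest and 180 in the smallest cells (0.48, 0.23 to 0.75; pools 0.48 and 0.53), but the 11 Myc family genes had a median of -0.28, and Mxd4, a repressor that competes with Myc for its partner Max, stood at -0.65 (-1.09 to -0.21). The 23 mTORC1 pathway genes had a median of -0.18 and the 24 sterol and fatty acid genes -0.14. Lysosome and autophagy genes, which break down cell contents, had smaller shares, with a median of -0.48. Of 31 members 27 had a ratio below 0, and 11 were lower past 1.5-fold, 4 in both pools. Of all genes, 53.4% were below 0 and 17.2% lower past 1.5-fold, 6.89% in both pools. Their level in the median cell was 17.6 of 10000 gene UMIs in the largest class (9.11 to 30.1), 22.97 in the middle and 24.1 in the smallest class (9.39 to 48.6), and 5 of 64 largest cells were above the median of the smallest. The lysosomal membrane gene Laptm5 had -0.31 (-0.48 to -0.15) and Map1lc3b, a marker of autophagosomes, -0.48 (-0.79 to -0.17). Per spike-in UMI the list was above 0, at 0.36.

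Stem cell genes had smaller shares in the largest cells. Of 22 measured members 13 were lower past 1.5-fold, 9 of them in both pools, and 1 was higher, against 17.2% of all genes lower and 6.89% lower in both pools. The median was -0.77 (-0.80 in pool 1, -0.63 in pool 2). The list took 2492 CPM in the largest, 3694 in the middle and 3877 in the smallest cells (-0.64, -0.70 to -0.57). The median cell had 23.5 of 10000 gene UMIs in the largest class (2.65 to 76.7), 36.4 in the middle (3.78 to 96.6) and 37.9 in the smallest (3.12 to 99.6). The classes overlapped widely, with 13 of 64 largest cells above the median of the smallest. Per spike-in UMI the direction of the summed list turned to 0.12, that is, the summed molecules of these genes differed less between the classes than the total did.

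Hlf, a transcription factor gene of stem cells, had 559 UMIs in the largest and 800 in the smallest cells, at 355 and 825 CPM with 777 in the middle (-1.22, -1.38 to -1.06; pools -1.52 and -0.90). Most cells of both classes held it, 57 and 60 of 64, with a median of 4 UMIs in a largest and 10 in a smallest cell, and it was still below 0 per spike-in UMI, at -0.46. Procr, the endothelial protein C receptor used to sort stem cells, had 15 and 42 UMIs (-2.18, -3.14 to -1.30), and was lower per spike-in UMI too, at -1.43. Mecom and Hoxa9, chosen after their values were seen, had -0.77 (78 and 82 UMIs) and -0.74 (149 and 153). Meis1, a homeobox partner of the Hox proteins, had -0.42 (-0.63 to -0.20) and Cd34 -0.18 (-0.35 to -0.01), while the interval of the niche ligand gene Angpt1 spanned 0 (-0.10, -0.26 to 0.07). Of 23 Hox and stem cell transcription factor genes, some of which are also on the stem list, 22 were below 0, against 53.4% of all genes. Past 1.5-fold 9 of the 23 were lower, against 17.2% of all genes, and the list's median was -0.48. Lmo2 had -0.41 (-0.57 to -0.26) and Myb -0.31 (-0.49 to -0.14).

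The 12 genes farthest below 0 were Vldlr, Tcp11l2, Hacd4, Procr, Kmt2b, Kdm7a, Hist1h2bc, Zbtb4, Hlf, Pbxip1, Cers4 and Mettl27. They stayed below 0 per spike-in UMI with their whole interval, and 11 of the 12 were lower past 1.5-fold there, against 0.546% of all genes; this contrast shares its cells with the one that chose them and is given as a description. Vldlr, a lipoprotein receptor gene, had 31 UMIs in the largest and 99 in the smallest cells (-2.37, -3.01 to -1.78), with 67.1 CPM in the middle between 19.7 and 102. It was seen in 17 largest and 34 smallest cells. The chromatin genes Kmt2b, a histone methyltransferase, with 26 and 58 UMIs (-1.86, -2.58 to -1.17), and Kdm7a, a histone demethylase, with 39 and 76 (-1.66, -2.26 to -1.09), followed. Cers4, a ceramide synthase gene, had 28 and 56 (-1.70, -2.41 to -1.02) and Pbxip1, which binds PBX factors, 43 and 79 (-1.58, -2.15 to -1.02). Levels ran in the order smallest, middle, largest for 11 of the 12, against 23% of all genes, a comparison that the choice of genes by their end classes favours.

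**Figure D4:**
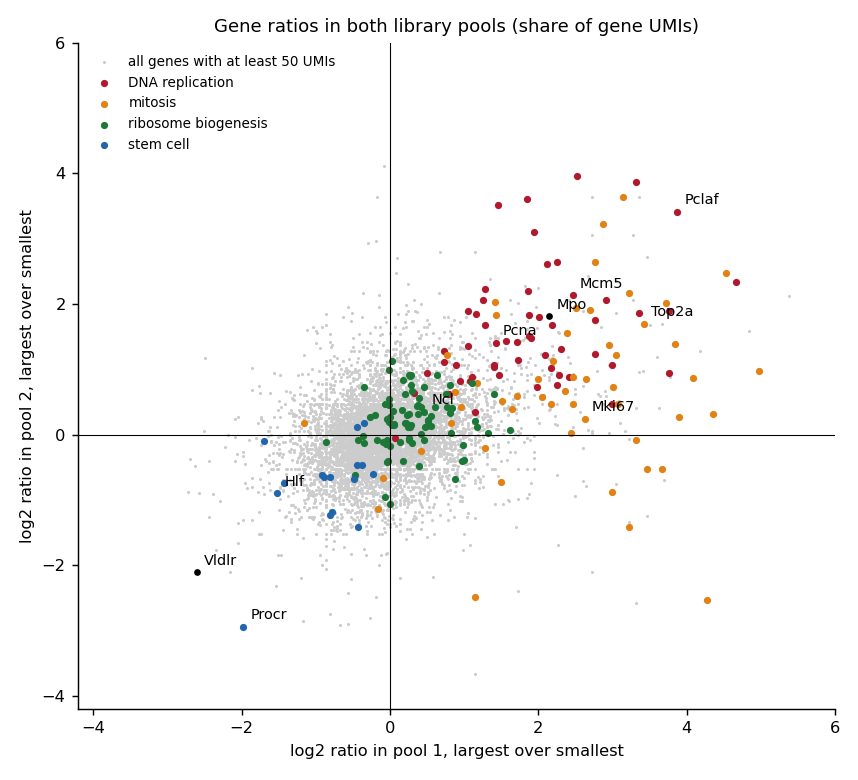
Log2 ratio of each gene, largest over smallest cells, in pool 1 against pool 2, for genes with at least 50 UMIs; members of 4 lists are coloured and Vldlr and Mpo are black, and the 1 gene without a UMI in either class of pool 2 is not drawn. Replication genes lie high in both pools, mitosis genes spread widely in pool 2 (median 0.47), and stem cell genes lie mostly below 0 in both.

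Lineage genes did not follow size in a common way. The 27 lymphoid priming genes had a median of 0.04 and a summed ratio of 0.04 (-0.02 to 0.11), and the median cell had 32.5 of 10000 gene UMIs in the largest class (5.93 to 99.8), 31.3 in the middle and 32.4 in the smallest (10.5 to 109). Single members differed. Dntt, the terminal transferase, had 811 UMIs in the largest and 215 in the smallest cells (1.22, 1.00 to 1.44; pools 1.33 and 1.04), seen in 48 and 44 cells. Mef2c, a factor of lymphoid fate, had 0.27 (0.05 to 0.49), while Flt3, the cytokine receptor of multipotent progenitors, had -0.37 (-0.58 to -0.16) and Bcl11a, needed for B cell development, -0.32 (-0.50 to -0.14). Il7r, which encodes CD127, had 47 UMIs in 9 largest cells and none in the smallest, at least 9.65-fold higher against a floor of 3 UMIs over the class. Dach1, the transcriptional regulator named in the series title, had 174 and 118 UMIs, and its interval spanned 0 (-0.14, -0.48 to 0.21), with -0.40 in pool 1 and 0.33 in pool 2.

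CD127 signal above 2000, a cutoff for high signal that was set here and not given by the labels, was recorded for 11 largest, 1 middle and 2 smallest cells. With those cells left out, the lymphoid priming ratio was -0.25. The replication ratio was then 1.44, the mitosis ratio 1.07 and the stem cell ratio -0.49. The B lineage list stood at 2.25 (1.73 to 2.81), but 1 largest cell of pool 1 held 208 of its 263 UMIs in that class, and without the highest cell of each class it was 0.15 (-0.51 to 0.83). Mature T, ILC and NK genes stood at 0.13 (-0.13 to 0.39), and at -0.27 without 1 largest cell that held 16.1% of their UMIs.

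Granulocyte-monocyte genes were higher in sum. Of 18 measured genes 11 were higher and 2 lower past 1.5-fold, 4 and 1 in both pools, and the sum stood at 0.71 (0.62 to 0.81). Of all genes, 14.2% were higher and 17.2% lower past 1.5-fold, 6.03% and 6.89% in both pools. Mpo had 541 UMIs in the largest and 77 in the smallest cells (2.11, 1.77 to 2.48; pools 2.14 and 1.82), with 1 cell holding 19.6% of them. Plac8, an early myeloid gene, had 859 and 351 (0.59, 0.41 to 0.78) and Prtn3, proteinase 3, 316 and 151 (0.37, 0.08 to 0.66). The median cells were close, at 13.4 of 10000 gene UMIs in the largest and 11.9 in the smallest class, and without the 4 highest cells of each class the sum was 0.36 (0.26 to 0.47), with 0.02 in pool 1 and 0.74 in pool 2. Megakaryocyte genes had a summed ratio of -0.36 (-0.50 to -0.23), with 8 of 15 lower and 1 higher past 1.5-fold, against those 17.2% and 14.2%. Erythroid genes had a summed ratio of -0.32 (-0.41 to -0.22), with -0.08 in pool 1 and -0.46 in pool 2. Yet the median of the 22 measured members was 0.06, with 7 higher and 4 lower past 1.5-fold. The 4 lower members are near the 17.2% of all genes. The erythroid sum was -0.62 without the largest cell that held 12.3% of the UMIs, and -0.12 (-0.22 to -0.02) without the smallest cell with the most gene UMIs. Car2, carbonic anhydrase 2, had -0.64 (-0.78 to -0.50), and Tfrc, the transferrin receptor, 0.76 (0.24 to 1.30).

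**Figure D5:**
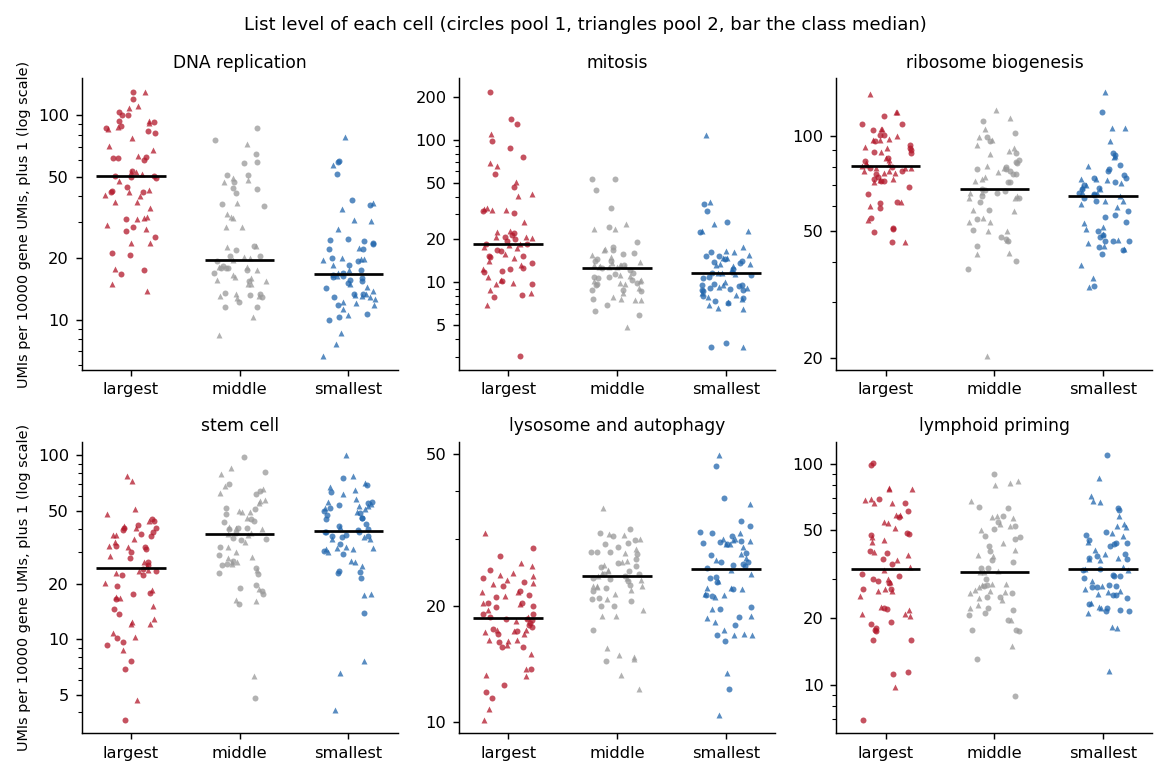
Level of 6 lists in each cell (UMIs per 10000 gene UMIs plus 1, log scale) by class; circles are pool 1, triangles pool 2 and bars class medians. Replication levels of the largest cells centre on 49.1 against 15.7 in the smallest, stem cell levels on 23.5 against 37.9, and lymphoid priming levels on 32.5 against 32.4.

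The middle class was closer to the smallest than to the largest for most of these lists. Replication had a log2 ratio of 1.08 between the largest and the middle cells and 0.46 between the middle and the smallest. Mitosis had 1.44 and -0.17, and stem cell genes -0.57 and -0.07. Ribosome biogenesis was split more evenly, at 0.19 and 0.10, and mRNA per spike-in UMI at 1.36-fold (1.34 to 1.38) and 1.24-fold (1.22 to 1.26). The median FSC differed by 1.13-fold between the largest and the middle cells and by 1.11-fold between the middle and the smallest. Of the 12 genes farthest above 0, 7 had levels in the order largest, middle, smallest, against 20.3% of all genes, with the same reserve.

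Other sorter signals differed between the classes as well, and their part in the gene differences was not tested beyond the stratified values given with the processing. Side scatter, a measure of granularity, had a median of 56512 in the largest, 50368 in the middle and 49728 in the smallest cells. The antibody signals of larger cells were mostly higher: CD135 had medians of 828, 668 and 429, CD127 675, 482 and 455, and CD16/32 735, 569 and 552. The Sca-1 medians ran the other way, with 1312, 1829 and 1845, and cKit had 6289, 6915 and 6419 with no order. Across the cells of pools 1 and 2 these relations to FSC were weaker than the medians alone show. The rho was 0.11 and 0.17 for CD135, 0.43 and 0.16 for CD127, and 0.23 and 0.08 for CD16/32. For Sca-1 it was near 0, at -0.08 and -0.09. An antibody signal is an amount per cell, so the spike-in scale is the nearer one to set beside it. On that scale Flt3, the gene of CD135, stood at 0.38, below the 0.73 of the median gene with at least 50 UMIs. As 94.4% of such genes were above 0 there, the direction that Flt3 shares with the CD135 signal says little about CD135. As a share of gene UMIs Flt3 was lower in the largest cells (-0.37). Kit had -0.62 (-0.80 to -0.44) as a share and 0.14 per spike-in UMI. Cd48, a marker of progenitors past the stem cell stage, had 134 and 49 UMIs (0.75, 0.27 to 1.25 as a share). Ly6a, the gene of Sca-1, spanned 0 as a share (-0.53, -1.18 to 0.13). The 0.76 added by the spike-in scale puts Ly6a above 0, with an interval still spanning 0. The Sca-1 medians, in contrast, were lower in the largest cells.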

How the data were processed

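Poly(A)-primed CEL-seq2 libraries of single cells with 6-base UMIs and ERCC spike-ins were made per the labels' protocols. The authors deposited raw UMI counts per gene and cell for 20764 genes and 71 spike-ins. The build in the submitters' processing notes is GRCh38, a human one, although every gene has a mouse Ensembl identifier. Aligner and counting tool: not given in the sources used here. Symbols came from GENCODE M21 by identifier, for 20530 genes. Promoters came from RefSeq on GRCm38.p6.

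Cells were ranked by FSC within a pool, with ties taken in the order of the samples, and kept from 20% of the pool's median gene UMIs. The 191 kept cells had 3927 to 49372 gene UMIs, with a median of 17715. UMIs were summed over a class and divided by its gene UMIs to give counts per 1000000 (CPM). Ratios have exact conditional binomial 95% intervals (scipy 1.17.1), checked on simulated counts. A class with no UMI was set at a floor of 3. Measured list members had at least 10 UMIs over both end classes, while list sums and levels per cell took in all listed genes among the counts. Genes were named by a rule: Mki67, Pcna, Ncl and Dach1, 12 per direction with at least 50 UMIs, the same sign in both pools and at most 20% of the UMIs in 1 cell, up to 4 members of a list with the most UMIs, and the genes of the sorted proteins. Predicted, pseudogene and ribosomal protein symbols were left out of the 12. The members and the 38 gene lists were chosen with earlier results of these data known. Cells were sorted singly and doublets were not called, so whether a well held a doublet, among the largest cells or elsewhere, was not tested. UMI collisions were corrected in an alternative only.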

Additional observations from a re-analysis of the deposited data

How the results depend on the processing

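As reported, gene UMIs stood at 1.62-fold per cell and 1.69-fold per spike-in UMI. Under the alternatives run, these ratios and the replication, mitosis and ribosome biogenesis sums kept their direction; the stem cell sum did except per spike-in UMI, and the lymphoid priming sum, whose interval spanned 0, took both signs. With the 16 highest and 16 lowest cells of a pool, gene UMIs per cell stood at 1.94-fold and per spike-in UMI at 2.00-fold, and the summed log2 ratios were 1.95 (replication), 2.34 (mitosis), 0.38 (ribosome biogenesis), -0.23 (lymphoid priming) and -0.78 (stem cell). With 48 and 48 they were 1.42-fold and 1.48-fold, and 1.18, 1.05, 0.24 and -0.52 without the lymphoid list, which moved little; Cpa3 reversed to -0.20. In pool 1 alone they were 1.82-fold and 1.98-fold, with 1.63 (replication), 1.98 (mitosis) and -0.76 (stem cell). In pool 2 alone they were 1.44-fold and 1.42-fold, with 1.42, 0.55 and -0.51, 446 genes higher and 381 lower past 1.5-fold, and Cd34 reversed to 0.11. Without cells of CD127 above 2000 they were 1.63-fold and 1.66-fold, with 1.44 (replication), 1.07 (mitosis), -0.25 (lymphoid priming) and -0.49 (stem cell).

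Within 3 equal parts of the CD135 signal they were 1.65-fold and 1.72-fold, with 1.35 (mitosis) and -0.11 (lymphoid priming). Within 3 equal parts of side scatter, added after the data were seen, gene UMIs stood at 1.59-fold, with 1.40 (replication), 1.03 (mitosis) and 0.16 (lymphoid priming). Without the smallest-class cell of most gene UMIs, also added later, they were 1.67-fold and 1.74-fold, with 1.66 (mitosis) and 0.35 (ribosome biogenesis). Correcting UMI collisions, added later too, gave 1.64-fold by gene UMIs. Leaving out tied cells gave 1.72-fold per spike-in UMI. Leaving out cells under 50% of the pool median gave 1.54-fold and 1.65-fold. The mean of per-cell CPM gave 1.46 (replication) and 0.34 (ribosome biogenesis). Thinning gave 1.43 (replication), with 447 genes higher and 478 lower, where fewer UMIs leave fewer genes tested. From 10 UMIs, 1712 genes were higher and 2070 lower, and from 200 UMIs 164 and 104.

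Per spike-in UMI the lists stood at 2.29 (replication), 2.02 (mitosis), 1.05 (ribosome biogenesis) and 0.80 (lymphoid priming), with 4662 genes higher and 40 lower. By the construction of that scale, the stem cell list reversed to 0.12, Foxo3 to 0.056, Mxd4 to 0.11, Laptm5 to 0.44, Map1lc3b to 0.28, Cd34 to 0.57, Meis1 and Lmo2 to 0.34, Myb to 0.44, Bcl11a to 0.43, Flt3 to 0.38, Car2 to 0.12, Ifi203 to 0.26, Ifitm3 to 0.17 and Kit to 0.14. Of the 93 named genes, 1293 values under the alternatives kept their direction and lay within their counting interval, 179 moved and 16 reversed. Apart from the spike-in scale, the causes were not tested. Keeping the cell of few UMIs gave the same values, as it is in the middle class. No paired analysis was possible because no replicate numbers link cells. Counts of single genes set the width of the intervals, which for genes near 50 UMIs span over 1 log2 unit.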

Other observations

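Some genes outside the described lists differed between the size classes. Rora, a nuclear receptor gene of innate lymphoid cells, had 7 UMIs in the largest and 32 in the smallest cells (log2 ratio -2.89, -4.32 to -1.69), spread over 6 and 21 cells, with -3.98 in pool 1 and -1.11 in pool 2. Id2, an inhibitor of E proteins, had 8 and 32 (-2.70, -4.03 to -1.55), but 1 cell held 65% of them. Interferon response genes had a median of -0.43 over 32 genes, with -0.79 in pool 1 and -0.04 in pool 2. Ifitm3, an antiviral membrane protein gene, had 321 and 296 UMIs (-0.58, -0.81 to -0.35), and Ifi203 481 and 417 (-0.49, -0.69 to -0.30). Immediate early genes differed in sign between pools, with a summed ratio of -0.61 in pool 1 and 0.55 in pool 2.

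MHC class II and dendritic genes stood at -1.28 (-1.42 to -1.14) in sum. In the smallest class 1 cell of pool 2, with an FSC of 116000, held 554 of the 1048 UMIs, or 346 of 10000 of its own gene UMIs, while the next cells of that class held 18 each. Without the highest cell of each class the ratio was -0.26 (-0.43 to -0.09). Gata2, a factor of stem, mast and megakaryocyte cells, had 123 and 143 UMIs (-0.92, -1.28 to -0.56), and Cpa3, a mast cell protease gene, 142 and 43 (1.02, 0.52 to 1.55), with 24.3% of its UMIs in 1 cell.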
